A study of Homo sapiens with 6 samples.

Results

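ISG15 is a small protein that cells attach to other proteins in the way that ubiquitin is attached, and the 6 genes described here encode the modifier itself and the enzymes that add and remove it. The members are ISG15, its activating enzyme (E1) UBA7, its conjugating enzyme (E2) UBE2L6, the ligases (E3) HERC5 and HERC6, and the ISG15-specific protease USP18. They were selected by gene symbol, and all 6 were found among the 26255 symbols of the deposited tables. All 6 also passed the filter on low values, a mean FPKM of 1 or more across libraries, which left 12040 genes for testing.

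ISG15 is made as a precursor, trimmed to a mature form, and passed from the E1 to the E2 and then by an E3 onto lysines of target proteins, a process named ISGylation. The genes of this pathway are classical targets of type I interferon, whose receptor activates the transcription factor complex ISGF3, which binds the interferon-stimulated response element (ISRE) in promoters. USP18 removes ISG15 from its targets and, separately from that activity, binds the interferon receptor subunit IFNAR2 and dampens its signalling.

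The libraries came from BxPC-3, an established cell line from a human pancreatic ductal adenocarcinoma, and formed 3 groups of 2: Parent cells without treatment, cells given a negative control (NC-1), and cells given miR-4711-5p. The study collected RNA 36 h after the start of treatment, to compare gene expression between control and miR-4711-5p-treated cells. Expression was given as FPKM, which counts fragments relative to exon length and to the size of the library, so that levels of different genes can be compared per length. No label states that the 2 libraries of a group came from separate cultures, so p-values measure the spread between these libraries, which may be technical.

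The deposited FPKM summed to between 493145 and 550772 per library, with 16597 to 17305 genes above 0. The depth in reads is unknown, and the smallest steps between low values gave a relative depth of 0.751 to 1.21 of the first Parent library. All 7 epithelial and ductal markers passed the filter (summed FPKM 5304 to 6283), and SMAD4, which is deleted in BxPC-3, was listed at 0 in all 6 libraries. No blood cell marker passed 0.684 FPKM in any library, and the 6 of them together summed to between 0.563 and 0.979 FPKM, with TYROBP at 0 throughout.

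The study lists miR-4711-5p as a pair of RNA strands, sense and antisense, given to cells by transfection. A negative control RNA is listed as a shorter pair of another sequence, and no label ties it to NC-1. The sense strand of miR-4711-5p has the sequence of the mature microRNA. It is shown here with its seed, positions 2 to 8, in capitals (RefSeq, GRCh38.p14, chr1:59733269-59733291, minus strand).
miR-4711-5p: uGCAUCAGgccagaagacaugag
The seed pairs with CTGATGC in a transcript, and the sites searched were CTGATGC (7mer-m8), CTGATGCA (8mer) and TGATGCA (7mer-A1). None of these was found in any annotated 3′ UTR of the 6 members, whose longest 3′ UTRs in GENCODE v44 measured 62 nt (ISG15), 99 nt (UBA7), 702 nt (UBE2L6), 285 nt (HERC5), 637 nt (HERC6) and 580 nt (USP18). Among 10593 tested genes with an annotated 3′ UTR, 1958 (18.5%) held at least 1 site in the longest one.

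Promoters were available for 4 of the 6 members (RefSeq, GRCh38.p14, 250 bases before to 50 bases after the annotated start), and those of ISG15 and HERC5 are shown because they hold the ISRE core. The motif searched was GAAANNGAAA on either strand. A match on the other strand reads TTTCNNTTTC in the sequence printed, which is that of the strand of the gene. Capitals mark the matches, overlapping matches being joined. ISG15 lies at chr1:1013247-1013546 on the plus strand and HERC5 at chr4:88456869-88457168 on the plus strand.
ISG15: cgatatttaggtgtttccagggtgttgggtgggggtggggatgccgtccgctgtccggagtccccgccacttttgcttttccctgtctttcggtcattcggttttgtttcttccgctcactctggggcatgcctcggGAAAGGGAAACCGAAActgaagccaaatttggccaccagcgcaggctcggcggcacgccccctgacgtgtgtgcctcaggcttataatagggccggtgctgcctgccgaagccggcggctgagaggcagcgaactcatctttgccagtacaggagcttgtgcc
HERC5: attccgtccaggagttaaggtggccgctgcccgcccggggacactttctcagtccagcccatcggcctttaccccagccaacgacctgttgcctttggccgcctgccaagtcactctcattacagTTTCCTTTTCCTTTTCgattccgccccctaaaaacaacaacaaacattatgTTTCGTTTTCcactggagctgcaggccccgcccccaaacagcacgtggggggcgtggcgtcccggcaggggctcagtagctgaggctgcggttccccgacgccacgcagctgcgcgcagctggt
ISG15 had 2 overlapping matches, beginning 113 and 107 bases before the start, on the strand of the gene. HERC5 had 3 matches on the other strand, beginning 125, 119 and 74 bases before the start, of which the first pair overlapped. The windows of HERC6 (chr4:88378602-88378901, plus strand) and both windows of UBE2L6 (chr11:57567886-57568185 and chr11:57567623-57567922, minus strand) held 0 matches. The ISRE core was present in 1255 of 35116 promoter windows of the same length (3.57%). The GAS element TTCNNNGAA, the same on both strands and a second element of interferon responses, was present in 2689 of them (7.66%) and in 0 of the 5 windows of the members.

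**Figure D1:**
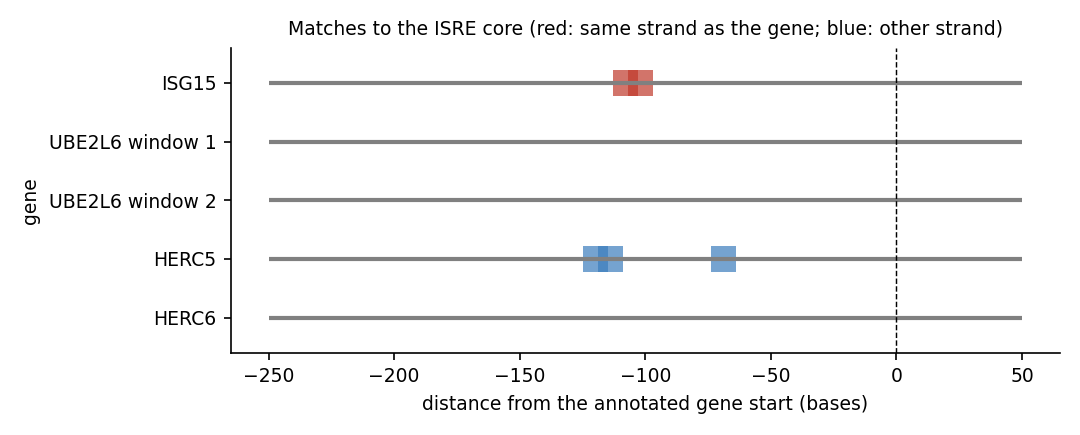
Position of matches to the ISRE core in the 5 promoter windows of ISG15, UBE2L6, HERC5 and HERC6. The horizontal axis gives the distance in bases from the annotated gene start (dashed line), grey lines are the windows searched, and red and blue boxes are matches of 10 bases on the strand of the gene and on the other strand. ISG15 has 2 matches and HERC5 has 3, all between 125 bases before the start and the start itself.

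With miR-4711-5p, the modifier, the E2, both HERC ligases and the protease were higher than in NC-1, from 2.10-fold (HERC6) to 5.996-fold (USP18), while the E1 UBA7 stood 1.22-fold higher and did not pass the test. Differences were tested on log2(FPKM + 1) with limma in a fit of all 3 groups, and a gene was called at a Benjamini-Hochberg adjusted p under 0.05 over the 12040 genes. In total 5 of the 6 members were called higher against NC-1, where 18.4% of all genes tested were called higher and 21.2% lower. The median log2 difference of the 6 members was 1.197, against 0.00 for all genes tested. All 6 members were higher in both miR-4711-5p libraries than in both NC-1 libraries, which was the case for 36.2% of the genes tested. In these bulk samples a change in the share of cells that express a gene and a change in RNA per cell cannot be told apart.

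ISG15, the modifier (chr1:936518-949920, plus strand, hg19), was at 181 and 167 FPKM in Parent, 180.1 and 177 FPKM in NC-1, and 793 and 708 FPKM in the miR-4711-5p libraries. The control groups overlapped, and both treated libraries stood far above them. The means were 174 ± 10.1 (SD, n = 2), 179 ± 2.02 and 751 ± 60.2 FPKM. Against NC-1 this was an increase of 4.201-fold, a log2 difference of 2.06 (SE 0.0645, limma adjusted p = 3.75e-06), which placed it 28th from the top of the 12040 genes. By level it was the most abundant of the 6 genes in every library. It ranked between 413 and 488 among the genes tested in the 4 control libraries and between 87 and 102 in the treated ones, and its share of all FPKM went from 0.0308% to 0.0349% in the controls to 0.142% and 0.161%.

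UBA7, the E1 that activates ISG15 (chr3:49842642-49851386, minus strand), was at 6.69 and 6.28 FPKM in Parent, 9.83 and 9.87 FPKM in NC-1, and 13.2 and 10.9 FPKM with miR-4711-5p. The 3 groups did not overlap, and the treated libraries lay further apart than those of either control group. Against NC-1 the log2 difference was 0.26 (SE 0.0892, 95% interval 0.05 to 0.47, limma adjusted p = 0.053). Without the first miR-4711-5p library it was 0.13 (limma adjusted p = 0.28), and without the second it was 0.39 and passed the test (limma adjusted p = 0.0205). In both cases the remaining treated library was taken to vary like the other groups.

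UBE2L6, the E2 (chr11:57319129-57335757, minus strand), was at 37.4 and 38.7 FPKM in Parent, 42.1 and 46.8 FPKM in NC-1, and 117 and 111 FPKM with miR-4711-5p. The treated libraries did not overlap with either control. The increase over NC-1 was 2.57-fold, a log2 difference of 1.34 (SE 0.0618, limma adjusted p = 1.19e-05), the 77th largest.

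HERC5 and HERC6 encode ligases with a HECT domain, HERC5 being the main ISG15 ligase of human cells and HERC6 its counterpart in the mouse. They lie side by side on the same strand, HERC6 at chr4:89299891-89364249 and HERC5 at chr4:89378270-89427314, with 14020 bases between them. HERC5 was at 11.1 and 9.61 FPKM in Parent, 11.2 and 10.6 FPKM in NC-1, and 24.6 and 22.7 FPKM with miR-4711-5p. HERC6 was at 14.3 and 13.0 FPKM in Parent, 15.8 and 16.1 FPKM in NC-1, and 34.1 and 32.9 FPKM with miR-4711-5p. For both genes the treated libraries stood clear of all 4 controls. Against NC-1, HERC5 rose 2.17-fold (log2 difference 1.05, SE 0.0783, limma adjusted p = 8.79e-05) and HERC6 rose 2.10-fold (log2 difference 1.02, SE 0.0596, limma adjusted p = 2.97e-05). Within each library HERC6 was between 1.29 and 1.52 times HERC5. Both Parent ratios (1.29 and 1.35) were below those of NC-1 (1.42 and 1.52) and miR-4711-5p (1.39 and 1.45), and the latter groups overlapped.

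USP18, the protease (chr22:18632885-18660164, plus strand), was at 2.49 and 3.23 FPKM in Parent, 4.19 and 4.51 FPKM in NC-1, and 28.6 and 23.6 FPKM with miR-4711-5p. It was the lowest of the 6 genes in every control library and stood above UBA7 in both treated libraries. USP18 rose 5.996-fold over NC-1, a log2 difference of 2.33 (SE 0.119, limma adjusted p = 1.69e-05), the 15th largest of the 12040. Of the 1784 windows of 75 bases, the read length, along its canonical transcript, 376 (21.1%) also occur in transcripts of other genes, among them the pseudogene USP41 (chr22:20717911-20731541, minus strand). USP41 was not among the file symbols, and how reads from shared stretches were assigned was not tested. The other members shared 0 windows, except HERC6 with 5 of 3702 (0.135%), shared with HERC3.

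**Figure D2:**
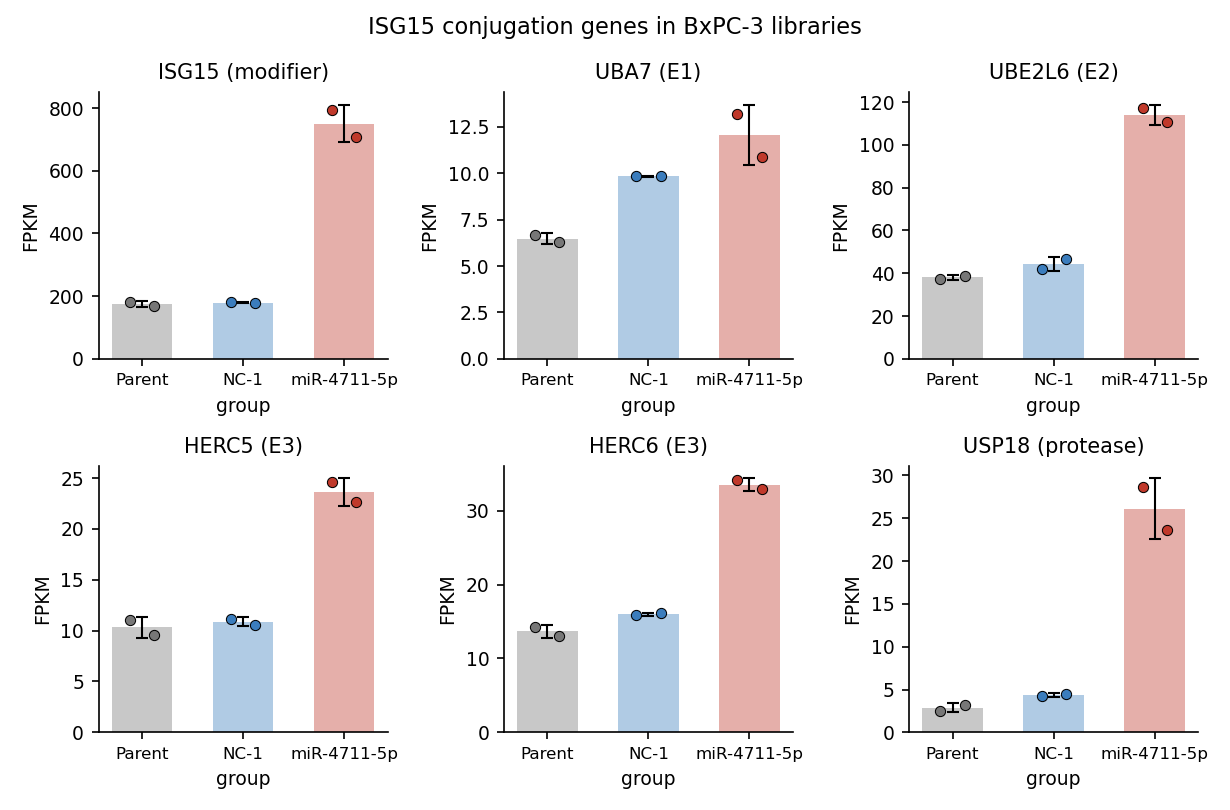
FPKM of the 6 genes of the ISG15 system in the Parent, NC-1 and miR-4711-5p groups. Each panel is 1 gene with its own vertical axis in FPKM starting at 0; points are libraries, bars are means and error bars are SD (n = 2). Both miR-4711-5p points lie above all 4 control points in every panel, with the smallest gap for UBA7 (10.9 against 9.87 FPKM).

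Against Parent, which shares the miR-4711-5p libraries with the comparison above, all 6 members were called higher, where 18.7% of genes tested were called higher and 24.7% lower. USP18 was 9.12-fold higher, ISG15 4.31-fold, UBE2L6 2.998-fold, HERC6 2.46-fold, HERC5 2.29-fold and UBA7 1.86-fold. The log2 differences ran from 0.80 (UBA7, SE 0.0892, limma adjusted p = 0.000485) to 2.81 (USP18, SE 0.119, limma adjusted p = 6.78e-06), with a median of 1.40 against -0.01 for all genes tested. No member overlapped between these groups, which was the case, in the same direction, for 35.0% of genes tested.

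The control treatment itself was compared with Parent. No group was given transfection without an RNA, so effects of transfection and of the control RNA cannot be told apart here. UBA7 was 1.52-fold higher in NC-1, a log2 difference of 0.54 (SE 0.0892, 95% interval 0.33 to 0.75, limma adjusted p = 0.00666). USP18 was also 1.52-fold higher (log2 difference 0.48, SE 0.119, limma adjusted p = 0.0262), and UBE2L6 and HERC6 were each 1.17-fold higher (limma adjusted p = 0.0396 and 0.0371). For ISG15 and HERC5 the log2 differences were 0.04 (95% interval -0.12 to 0.19) and 0.07 (95% interval -0.12 to 0.25), and neither passed the test (limma adjusted p = 0.703 and 0.546). So 4 of 6 members were called higher in NC-1, where 12.1% of genes tested were called higher and 15.1% lower, and the libraries of 4 of 6 did not overlap, against 31.3% of genes tested. The UBA7 call was kept under every alternative run, while those of USP18, UBE2L6 and HERC6 were lost under some of them. Leaving out any 1 of the 6 libraries left 2 members called, or 1, UBA7, without the second NC-1 library.

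**Figure D3:**
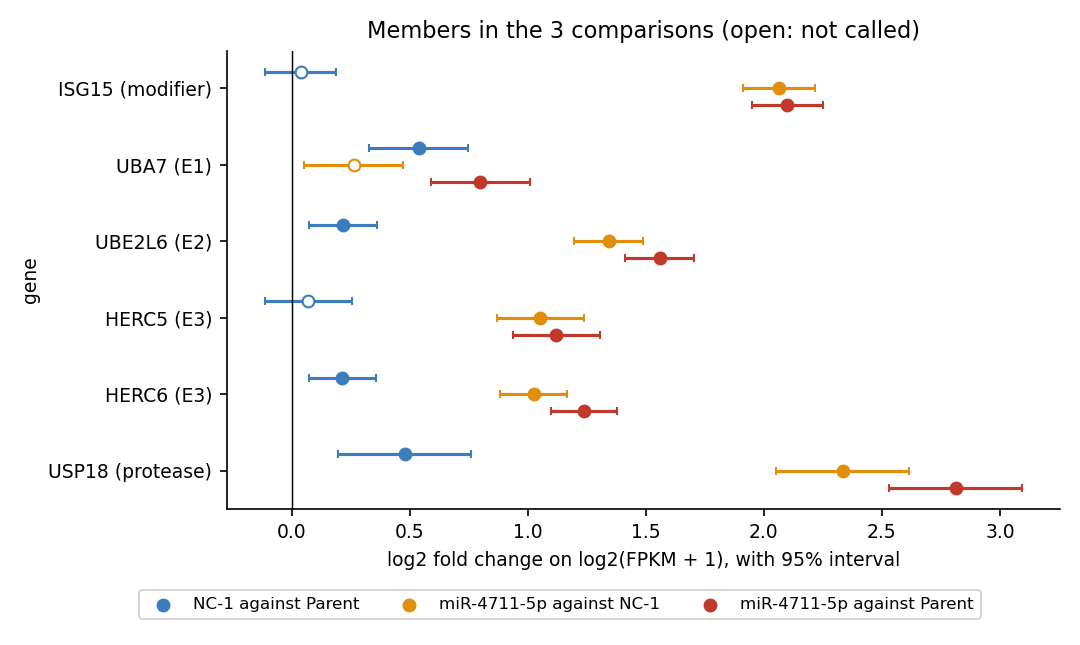
Log2 differences of the 6 genes in the 3 comparisons. The horizontal axis is the limma log2 fold change on log2(FPKM + 1), points are estimates from 2 libraries a group, bars are 95% intervals and open points did not pass the test. The miR-4711-5p differences of ISG15 and USP18 lie between 2.06 and 2.81, and UBA7 is the gene whose NC-1 against Parent difference (0.54) is larger than its miR-4711-5p against NC-1 difference (0.26).

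Because the genes moved by different amounts, the make-up of the pathway at the RNA level differed between groups. In each library ISG15 was divided by each enzyme, a ratio that does not depend on the scale of the library. ISG15 was 26.6 to 27.1 times UBA7 in Parent, 18.0 to 18.3 times in NC-1 and 60.0 to 65.0 times with miR-4711-5p. The ratio to HERC5 was 16.1 to 17.4 in the 4 controls and 31.3 to 32.3 with miR-4711-5p, and that to HERC6 went from 11.0 to 12.9 in the controls to 21.5 to 23.2. The ratio to UBE2L6 went from 3.79 to 4.86 in the controls to 6.40 to 6.76. The ratio to the protease moved the other way, from 51.8 and 72.8 in Parent and 39.3 and 43.0 in NC-1 to 27.7 and 30.0 with miR-4711-5p. USP18 thus stood at 0.373 to 0.514 of the level of UBA7 in the 4 controls and at 2.17 and 2.16 times its level in the treated libraries. These ratios are descriptions and were not tested.

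**Figure D4:**
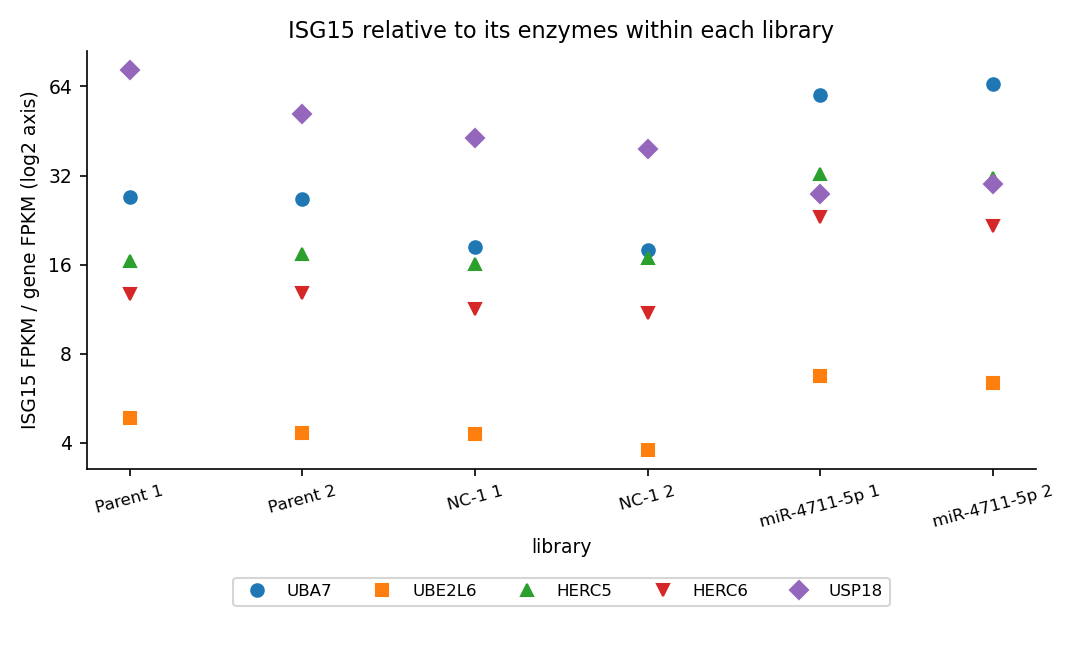
FPKM of ISG15 divided by that of each enzyme in the same library. The vertical axis is a log2 axis, libraries are on the horizontal axis and each symbol is 1 gene, without error bars since each point is 1 library. The ratios to UBA7, UBE2L6, HERC5 and HERC6 are highest in the 2 miR-4711-5p libraries, and that to USP18 is lowest there (27.7 and 30.0).

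A selection of genes that encode the equivalent machinery of ubiquitin and other ubiquitin-like modifiers was compared as 40 counterparts. These were 13 modifiers, 9 E1, 8 E2 and 10 protease genes, drawn from the ubiquitin, SUMO, NEDD8, UFM1, URM1, FAT10 and autophagy systems. The proteases were those of SUMO, NEDD8 and UFM1 only, and no system was covered in full. Against NC-1, 8 of the 40 were called higher and 9 lower, where 18.4% of all genes tested were higher and 21.2% lower. The median log2 difference was 0.02. Against Parent 6 were higher and 14 lower (all genes tested 18.7% and 24.7%), with a median of -0.01. Between NC-1 and Parent 1 was higher and 6 were lower (all genes tested 12.1% and 15.1%). The counts of modifiers, E1, E2 and proteases below are parts of these 40, with the same shares over all genes tested. In each of the miR-4711-5p comparisons 1 of the 40 was more than doubled and 1 was below a ratio of 0.5.

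The modifier above a ratio of 2 was UBD, which encodes FAT10, a modifier also induced by cytokines. It was at 3.36 and 2.97 FPKM in Parent, 2.95 and 3.38 FPKM in NC-1, and 10.2 and 11.1 FPKM with miR-4711-5p, a log2 difference from NC-1 of 1.48 (SE 0.0893, limma adjusted p = 3.29e-05). Of the 13 other modifiers 4 rose and 3 fell against NC-1, among them RPS27A, a ubiquitin fusion gene (log2 difference -0.60), and URM1 (0.53).

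Among the other E1 genes 2 rose and 2 fell against NC-1. UBA3, the catalytic subunit of the NEDD8 E1, fell by 0.98 on the log2 scale (28.1 and 28.9 FPKM in NC-1, 13.7 and 14.3 FPKM with miR-4711-5p; limma adjusted p = 6.43e-05). Its partner subunit NAE1 rose by 0.43 and MOCS3, the E1 of URM1, by 0.25. UBA1, the main E1 of ubiquitin, was at 116 and 118 FPKM in NC-1 and 106 and 104 FPKM with miR-4711-5p (log2 difference -0.15, limma adjusted p = 0.0291). UBA7 was 0.0503 to 0.0511 of UBA1 in Parent, 0.0839 and 0.0849 in NC-1, and 0.105 and 0.124 with miR-4711-5p.

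Among the other E2 genes 2 rose and 3 fell against NC-1, led by UBE2Z (-0.56), UBE2F (-0.34) and UBE2M (0.27). UBE2L3, the E2 most closely related to UBE2L6, which serves ubiquitin, was at 40.5 and 42.6 FPKM in NC-1 and 45.7 and 48.0 FPKM with miR-4711-5p (log2 difference 0.17, limma adjusted p = 0.0333). UBE2L6 was thereby 0.822 and 0.829 of UBE2L3 in Parent, 1.04 and 1.10 in NC-1, and 2.57 and 2.31 with miR-4711-5p. Of the 10 proteases of other systems 0 rose and 1 fell, COPS5, the catalytic subunit of the COP9 signalosome (-0.24). Of the other HERC genes, HERC1 fell by 0.40 on the log2 scale, HERC4 rose by 0.23, and HERC2 and HERC3 did not pass the test (-0.18 and -0.16).

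The remaining genes tied to ISGylation moved in both directions. Of 9 tested, 2 rose and 3 fell against NC-1, where 18.4% of all genes tested were called higher and 21.2% lower. TRIM25, a ligase for ISG15, went from 28.9 and 30.8 FPKM in NC-1 to 40.4 and 40.2 FPKM (log2 difference 0.42, SE 0.0527, limma adjusted p = 0.000908). ARIH1, another reported ligase, went from 23.1 and 22.2 to 16.9 and 16.3 FPKM (log2 difference -0.43, SE 0.0505, limma adjusted p = 0.000704). Of the partners of USP18, STAT2 rose by 0.94, SKP2 fell by 0.30 and IFNAR2 fell by 0.23 on the log2 scale. USP5, USP14, USP16 and USP21, proteases reported to act on ISG15 conjugates, did not pass the test (-0.06 to 0.11), and USP2 was below the filter on low values.

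**Figure D5:**
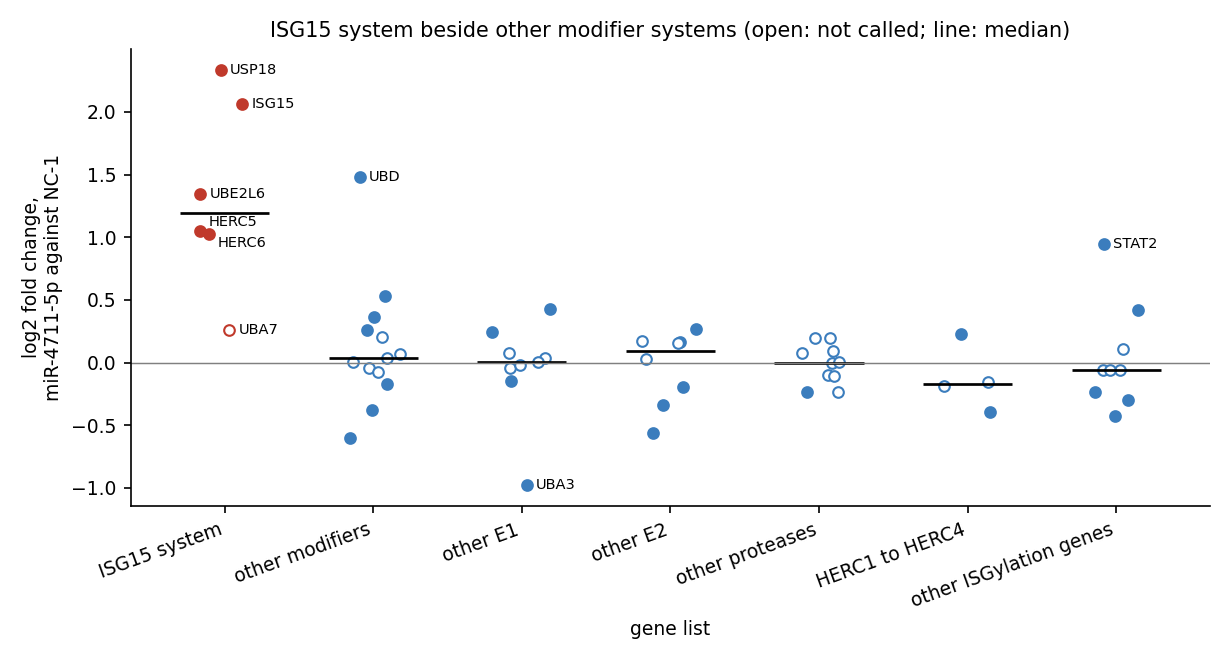
Log2 difference of miR-4711-5p against NC-1 for the 6 genes of the ISG15 system (red) and for genes of other modifier systems, HERC1 to HERC4 and other ISGylation genes (blue). The vertical axis is the limma log2 fold change on log2(FPKM + 1), each point is 1 gene, open points did not pass the test and lines are list medians. The median is 1.197 for the ISG15 system and between -0.17 and 0.09 for the other lists, with UBD (1.48) and UBA3 (-0.98) furthest from 0 outside the ISG15 system.

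Upstream of the pathway, against NC-1, IRF9, a DNA-binding subunit of ISGF3, rose by 1.03 on the log2 scale (36.5 and 38.5 FPKM in NC-1, 79.6 and 75.4 FPKM with miR-4711-5p), and JAK1, a kinase of the receptor, rose by 0.15. The receptor genes IFNAR1 and IFNAR2 fell by 0.45 and 0.23. TYK2, the other receptor kinase, did not pass the test (0.01).

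None of the 9 genes looked up for type I and III interferons passed the filter on low values, and 5 of them were listed at 0 in all 6 libraries. IFNA1 and IFNA2 were the only IFNA genes among the 9, and no other interferon gene was looked up. IFNB1, the interferon made first by many non-immune cells, was listed at 0 in all 4 control libraries and at 0.613 and 0.234 FPKM with miR-4711-5p. The 9 genes summed to 0 to 0.421 FPKM in the controls and to 1.73 and 0.843 FPKM in the treated libraries. At an unknown depth, values this low give no firm level, and no test was made.

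Among genes of proteins reported to be ISGylated, MX1, an antiviral GTPase, rose from 8.56 and 9.17 FPKM in NC-1 to 73.5 and 65.4 FPKM (7.83-fold), and DDX58, which encodes the RNA sensor RIG-I, rose from 16.4 and 16.1 to 48.8 and 43.8 FPKM (2.85-fold). Both are known as interferon-induced genes themselves. BECN1, an autophagy protein, fell by 0.31 on the log2 scale.

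The genes whose profile over the 6 libraries was nearest to that of each member were listed as a description, by Euclidean distance of log2(FPKM + 1) relative to the Parent mean. For ISG15 they were IFITM1 (0.19), TRIM22 (0.34) and IFIT3 (0.42), and for UBE2L6 they were OAS3 (0.10), OAS2 (0.12) and IFIH1 (0.14), all known interferon-induced genes. HERC6 was nearest to SLC15A3 (0.10), EIF2AK2 (0.12) and DHX58 (0.13). HERC5 was nearest to PDGFB (0.14), EIF2AK2 (0.18) and JUN (0.20), and UBA7 to HLA-B (0.07), MIR22HG (0.11) and HSPA13 (0.12). USP18 was nearest to IL6 (0.24), MX1 (0.55) and IFI44L (0.59), the largest distances of the 6. IL6, a cytokine gene, had mean levels of 0.171 FPKM in Parent, 0.642 FPKM in NC-1 and 7.02 FPKM with miR-4711-5p. Those of USP18 were 2.86, 4.35 and 26.1 FPKM. The added 1 in log2(FPKM + 1) understates changes of low genes such as IL6, so a small distance does not mean equal folds.

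Among the cell type markers, all 7 epithelial and ductal genes were called against NC-1, 4 higher and 3 lower. Of all genes tested, 18.4% were called higher and 21.2% lower. MUC1 was at 0.617 and KRT19 at 0.707 of their NC-1 means with miR-4711-5p, and at 0.497 and 0.553 of their Parent means. CLDN4 rose to 1.37 of its NC-1 mean and 1.66 of its Parent mean. KRT18, KRT8 and EPCAM were at 1.25, 1.19 and 1.18 of their NC-1 means, and KRT7 at 0.889. The endothelial marker CDH5 also moved with the groups. The 3 endothelial markers summed to 1.39 and 1.33 FPKM in Parent, 3.53 and 3.23 FPKM in NC-1, and 0.775 and 0.649 FPKM with miR-4711-5p. The 5 fibroblast markers summed to between 1.31 and 2.45 FPKM and the 2 markers of plasmacytoid dendritic cells, cells that make much interferon, to at most 0.103 FPKM. CDH5 fell with miR-4711-5p against NC-1 (log2 difference -1.38), where the members were higher. Its means were 0.962 FPKM in Parent, 3.02 in NC-1 and 0.541 with miR-4711-5p. CDH5 thus passed the filter on low values only through NC-1, the group it fell from. The part of these markers in the results was not tested.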

How the data were processed

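RNA from BxPC-3 cells was sequenced from stranded mRNA libraries as 75-base single-end reads. The authors mapped reads to hg19 and deposited FPKM per gene symbol, normalized for exon length and library size, not counts. The submitters' processing notes name TopHat2 2.1.1, Bowtie2 2.3.5.1, SAMtools 1.2 and Cufflinks 2.2.1, and the study's methods name other versions of the first 3 and Cuffnorm for FPKM. The gene annotation is not given in the sources used here.

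Genes averaging 1 FPKM or more were tested on log2(FPKM + 1), which understates changes of low genes, with limma 3.58.1 in R 4.3.3 (lmFit, contrasts.fit, eBayes with a trend, group only, 3 residual and 4.15 prior degrees of freedom, two-sided, Benjamini-Hochberg). The step was tested on simulated data. Folds are ratios of mean FPKM without a pseudocount. Other steps used Python 3.11.15, pandas 2.3.3, numpy 2.4.6 and matplotlib 3.10.9. Members and gene lists were chosen with earlier results of these data known. Every member is named, with UBE2L3, UBA1, TRIM25, ARIH1 and USP41, the 3 called genes of each list with the largest log2 difference against NC-1, and the 3 nearest profiles of each member; other genes are named as members of these lists, to complete a count. The lists were other ISGylation enzymes, HERC1 to HERC4, modifiers, E1, E2 and proteases of other systems, reported substrates, receptor to ISGF3, interferons, and cell type markers. Some genes of these lists are not reported here, and the lists of reported substrates and of receptor to ISGF3 are given without counts.

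Loci, transcripts and 3′ UTRs came from GENCODE v44 on GRCh37, the same build as hg19, and promoters and the microRNA from RefSeq (GRCh38.p14). UBA7 and USP18 had no promoter entry. Depth was estimated from steps between values under 0.1 FPKM and is only relative. Alternatives were other pseudocounts, filters, scalings, priors, sets of libraries, a replicate block, leaving out each library and a minimum ratio of 1.5. With 2 libraries a group, exact permutation cannot give a p below 0.333, so it was not used.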

Additional observations from a re-analysis of the deposited data

How the results depend on the processing

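Over 15 alternative settings, the 18 log2 differences of the members kept their side of the threshold in 243 of 270 cases, were no longer called in 21 and newly called in 6, with 0 reversed among called values. Among values not called, 2 turned sign for NC-1 against Parent, ISG15 to -0.02 and HERC5 to -0.02, both without the second Parent library. All 165 cases of the 11 miR-4711-5p differences other than UBA7 against NC-1 kept their call. Some settings could change little. The scaling factors over genes above 0 in every library were 1.006 to 1.007. Leaving out a library of the group not compared changes the estimate of the spread and not the difference. UBA7 against NC-1 (0.26, limma adjusted p = 0.053) passed the test with a pseudocount of 0.1 (0.28, limma adjusted p = 0.0492), a filter of at least 5 FPKM (0.26, 0.0419), quantile normalization (0.28, 0.04), a replicate block (0.26, 0.0445) and factors from genes of at least 10 FPKM (0.28, 0.0463), a scaling added after seeing the data. Leaving out 1 library gave 0.13 to 0.39, called only without the second miR-4711-5p library, and limma adjusted p over all alternatives ran from 0.0205 to 0.28.

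Between NC-1 and Parent the 4 members called became 1 without a filter, 2 without a trend, 2 with only the compared groups, 2 with a ratio of at least 1.5, and 1 to 2 leaving out 1 library. The log2 difference of UBE2L6 (0.22) was not called without a filter, without a trend, with only the compared groups or with a replicate block. Limma adjusted p was 0.0849, 0.0738, 0.0703 and 0.0566. HERC6 (0.21) was not called in the first 3 settings (limma adjusted p = 0.0697, 0.0587 and 0.0776), nor USP18 (0.48) without a filter (0.0849). Leaving out 1 library gave 0.14 to 0.29, 0.15 to 0.28 and 0.34 to 0.62, and lost each call in some fits. Over 15 settings the calls were lost 9, 8 and 4 times. The cause was not tested.

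Same-numbered libraries did not deviate together (r = 0.061, 0.003 and -0.0089 over 12040 genes), so the replicate block carries only a number, and it changed no other member call. All genes called higher and lower with a ratio of at least 1.5 were 551 and 744 against NC-1, 721 and 769 against Parent, and 307 and 194 for NC-1 against Parent. Leaving out 1 library gave 1260 to 2175 higher and 1677 to 2517 lower against NC-1, 1294 to 2228 and 1981 to 2971 against Parent, and 684 to 1087 and 803 to 1360 for NC-1 against Parent. No filter gave 1176 lower for NC-1 against Parent. With factors from genes of at least 10 FPKM, 57.2% of calls against Parent were higher (43.1% in the main fit, 3042 higher and 2276 lower) and 62.4% of those of NC-1 against Parent (44.4%, 1995 and 1202), with all 6 and 4 members still called. Counts of genes called in 1 direction, within each list and over all genes tested, were recomputed 1152 times. Of these, 957 stayed within 1.5 times the count of the main fit and 195 did not. FPKM keeps no read depth, so low values such as IFNB1 have no counting error here.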
